A study of Homo sapiens with 8 samples.

Results

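The 8 RNA-seq libraries described here were read by their replicate number: the 4 libraries labelled replicate 2 were set against the 4 labelled replicate 1, within each of 4 conditions. All 8 of the 8 libraries of the series entered, because every condition holds 1 library of each number. LP-1 is an established human multiple myeloma line that carries the t(4;14) translocation. The conditions were wild-type (WT) LP-1 cells with vehicle or SI-2, and bortezomib-resistant (BR) LP-1 cells with vehicle or SI-2, the compound being given at 25 nM over 24 h. SI-2 is a small-molecule inhibitor of the coactivator SRC-3, and bortezomib is a proteasome inhibitor used against myeloma. The BR cells are 1 derivative of the same line, kept with bortezomib for 2 months, and all groups grew in RPMI-1640 medium with serum. The sample titles name DMSO as the vehicle, whereas a second label calls the WT vehicle cells untreated.

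Libraries of the same condition are meant as repeats of each other, so a gene that moves with the replicate number in every condition measures spread that the design does not name. Cell lines are known to differ between cultures in growth rate, density, time since the last feeding and passage. Genes of mitosis, secretion, adhesion and the cytoskeleton are among those known to follow such states. The labels give no culture, harvest day, extraction, library preparation or sequencing run for either number, so these cannot be told apart here. The labels do not say whether the 2 libraries of a condition came from separate cultures, while the study describes its RNA-seq replicates as biologically independent experiments. The p-values below measure the spread between these libraries.

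Depth was nearly even, with 17997771 to 18570027 estimated reads on genes per library. Levels are given as CPM, counts scaled to a common library size with TMM, whose factors ran from 0.971 to 1.058. Where libraries are listed, the order is WT vehicle, WT SI-2, BR vehicle and BR SI-2. Differences are log2 values, replicate 2 minus replicate 1, from edgeR's quasi-likelihood fit with the 4 conditions as terms, given with their standard error (SE). Adjusted p-values of edgeR are Benjamini-Hochberg values, over all 13896 genes tested unless another number is given.

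The cells had the markers of plasma cells in every library. The 16 plasma cell markers summed to between 11679 and 16237 RPM (reads scaled to the library total only, without TMM), and TXNDC5, a chaperone of the secretory pathway, was the most abundant with a mean of 5078. Of 14 markers of other blood cells in the table, 7 had no more than 3 counts in any library, and the whole list summed to between 3.07 and 8.90 RPM.

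The second BR SI-2 library stood apart from the other 7. It held 114 genes with at least 30 counts that were also at least 4-fold above the highest of the other libraries, whereas each of the other 7 libraries had 0 or 1 such gene. The cause was not tested. These genes took up 0.0754% of its reads, against 0.00195% to 0.00230% elsewhere. COL1A1, a chain of fibrillar type I collagen, had 56.7 RPM there and at most 0.333 in the other 7 libraries. COL3A1, the chain of type III collagen, had 54.9 against at most 0.274. PAEP, which encodes the secreted protein glycodelin, had 18.7 against at most 0.108, and PIGR, the epithelial receptor that transports polymeric immunoglobulins, had 13.3 against at most 2.36.
The 12 fibroblast and stroma markers, led by COL1A1, summed to 190 RPM in that library and to between 4.88 and 8.83 in the other 7, and 1 of the 12 had no more than 3 counts anywhere. The 6 epithelial markers, led by KRT8, summed to 16.2 there and to between 4.92 and 6.93 elsewhere. Of the 114 genes, 16 passed the count filter, and 6 of those 16 differed in the same direction in all 4 conditions, as did 25.0% of all genes tested. Counts that lead the results are therefore given without this library too. In a fit with condition terms that omission removes the whole BR SI-2 pair from the replicate difference.

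**Figure D1:**
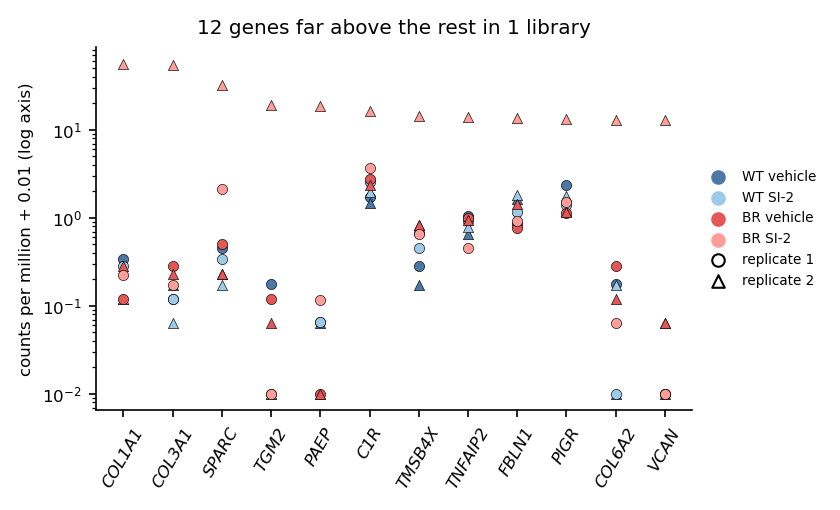
RPM (reads scaled to the library total) plus 0.01 (log axis) for the 12 genes with the highest level among the 114 that stand apart, 1 point per library. Triangles are replicate 2 and circles replicate 1, and the second BR SI-2 library is the upper triangle in every column, at 56.7 for COL1A1 and 54.9 for COL3A1.

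Replicate number separated the libraries on a main axis of the data. The first principal component (30.01% of the variance over all tested genes) was lower in each WT library of a number than in the BR libraries of that number with the same treatment. On the second component (23.87%) the replicate 1 libraries scored 20.3, 6.32, 23.9 and 19.3. The replicate 2 libraries scored -15.6, -14.6, -14.2 and -25.3, so the numbers did not overlap.

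**Figure D2:**
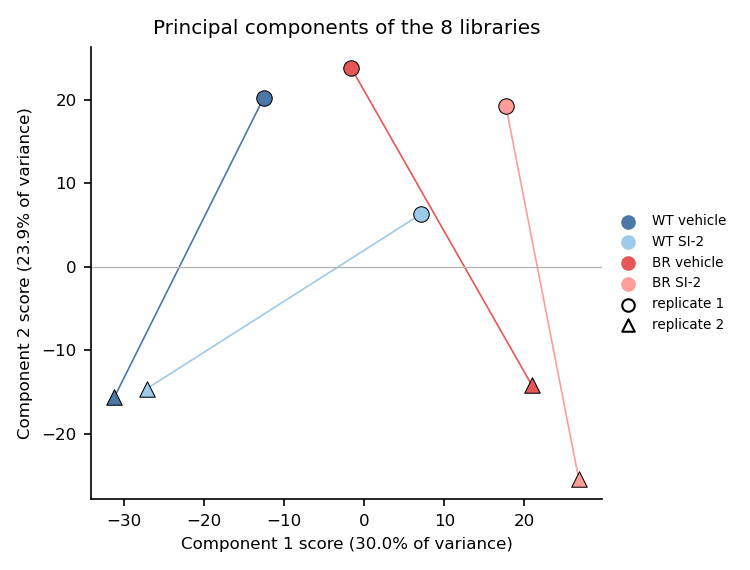
Scores of the 8 libraries on the first (x axis, 30.01% of variance) and second (y axis, 23.87%) principal component of log2 CPM. A line joins the libraries of a condition, circles are replicate 1 and triangles replicate 2, and the 4 circles lie above 0 on the y axis while the 4 triangles lie below it.

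No single gene passed the adjusted threshold in the 8-library fit. The count was 0 of 13896 genes (0%) at an adjusted p under 0.05 in edgeR, where the smallest adjusted p was 0.0704 and was shared by 40 genes. Before adjustment 2294 genes (16.5%) had a p under 0.05, of which 1170 were higher in replicate 2 (8.42% of all tested) and 1124 lower (8.09%). DESeq2 with the same terms was run with its own size factors and without the count filter. It gave p-values for 18507 genes and called 456, 219 higher and 237 lower. Its default adjustment can set aside genes of low mean count, so it may cover fewer genes. With its adjustment over all 18507 genes edgeR called 104, so the 2 adjustments are not alike. In the same edgeR fit 36 genes (0.259%) differed between BR and WT cells and 1973 had an unadjusted p under 0.05. SI-2 against vehicle gave 0 genes in edgeR, with 396 at an unadjusted p under 0.05, and 2 in DESeq2. Over all tested genes the standard deviation of the fitted log2 difference was 0.35 for replicate number, 0.35 for line and 0.28 for treatment.
Without condition terms, 126 genes (0.907%) passed in edgeR, 80 of them higher and 46 lower in replicate 2, and 119 of these 126 were also among the DESeq2 calls. Without the second BR SI-2 library the count in edgeR stayed at 0, with 1541 genes (10.9%) at an unadjusted p under 0.05. That share over all genes was 9.27% without the WT vehicle libraries, 17.8% without the WT SI-2 libraries and 16.4% without the BR vehicle libraries, and counts given below for these omissions are to be read beside it.

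Direction was shared by many genes. In all 4 conditions, 1757 genes (12.6%) were higher in replicate 2 and 1713 (12.3%) lower. For 820 genes (5.9%) the 4 replicate 2 libraries all lay above the 4 replicate 1 libraries, and for 828 genes (5.96%) all lay below. Leaving the BR SI-2 condition aside, 2346 genes were higher in the other 3 conditions and 2222 lower. Within a condition, 551 to 686 genes differed by 2-fold or more between the libraries, and 136 genes did so in the mean of the 4 differences. Genes at an unadjusted p under 0.05 had a median GC content of 54.4% where higher in replicate 2 and 46.4% where lower. The median over all tested genes was 49.7%. This was uneven between conditions. Over all tested genes with a GC value, the log2 difference and GC content had Pearson correlations of 0.095, 0.326, -0.067 and 0.087. The largest was in WT SI-2 cells, and BR vehicle cells had the opposite sign. The median level of the genes at an unadjusted p under 0.05 was 13.7 CPM where higher and 50.8 CPM where lower, against 26.7 CPM over all. The part of GC content in these differences was examined only by removing each library's GC trend, after which 2413 genes had an unadjusted p under 0.05. The part of level was not examined. The mean of the 4 differences had a Pearson correlation of -0.241 with log2 mean count.

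Among the genes with the smallest p were some of contractile fibres and of axon guidance. ACTA2 (NCBI gene 59), the smooth muscle form of actin, had 3.92, 5.44, 5.37 and 6.19 CPM in the replicate 1 libraries. In the replicate 2 libraries it had 12.9, 11.7, 11.5 and 15.4 CPM, so every replicate 2 library lay above every replicate 1 library. Its log2 difference was 1.31 (SE 0.15, edgeR adjusted p = 0.0704), a 2.47-fold difference, and it was 1.30 without the second BR SI-2 library. LMOD1 (25802), an actin nucleator of smooth muscle, stood at 2.79, 4.45, 4.46 and 6.91 CPM in replicate 1. In replicate 2 it stood at 8.63, 9.40, 10.2 and 12.7 CPM, again without overlap, and its log2 difference was 1.18. TAGLN, an actin-bundling protein of smooth muscle, was higher by 0.57 without overlap.
The wider list of serum response factor (SRF) targets and contractile genes held values in both directions. Of 16 members tested, 4 were higher at an unadjusted p under 0.05 and 2 lower, beside 8.42% and 8.09% over all genes. In all 4 conditions 4 were higher and 2 lower, beside 12.6% and 12.3%, and the median was 0.07 against -0.01 over all genes. Without the second BR SI-2 library the median was -0.03, with 3 members higher and 0 lower at an unadjusted p under 0.05 in edgeR.

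NTN1 (9423), the secreted guidance cue netrin-1, had 2.62, 3.52, 3.05 and 1.97 CPM in replicate 1. It had 8.13, 8.45, 5.57 and 6.19 CPM in replicate 2, a log2 difference of 1.35 (SE 0.18, edgeR adjusted p = 0.0704). The groups did not overlap, and the difference was smallest in BR vehicle cells. PLXNA1 (5361), a receptor for semaphorins, had between 26.8 and 33.9 CPM in replicate 1 and between 48.7 and 51.6 CPM in replicate 2 (log2 difference 0.72, SE 0.10). EFNA1, a membrane-bound ligand of Eph receptors, was higher by 0.79 at a level of 0.603 to 1.88 CPM. Of 28 netrin, semaphorin, ephrin and other guidance genes tested, 6 were higher and 1 lower at an unadjusted p under 0.05, beside 8.42% and 8.09% over all genes. In all 4 conditions 5 were higher and 2 lower, beside 12.6% and 12.3%. The median was 0.07, or 0.03 without the second BR SI-2 library. Without the second BR SI-2 library 3 were higher and 1 lower at an unadjusted p under 0.05.

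DCLK1 (9201), a microtubule-binding kinase of the doublecortin family, was lower in replicate 2. The replicate 1 libraries had 7.34, 10.7, 12.3 and 16.3 CPM, and the replicate 2 libraries 3.71, 4.34, 5.52 and 4.99 CPM. Its log2 difference was -1.29 (SE 0.16, edgeR adjusted p = 0.0704), and the spread among the replicate 1 libraries was the wider. Of the 25 tested tubulins, microtubule-associated proteins and doublecortin family genes, 18 had values above 0 and 7, DCLK1 among them, below 0. Of 3 members chosen after their values were seen, TUBA1A, an alpha tubulin, was higher by 0.72 and TUBB2A, a beta tubulin, by 0.79. MAP2, a stabiliser of neuronal microtubules, was higher by 1.23 at a level of 0.493 to 2.55 CPM. Its condition differences were 0.64, 0.28, 1.98 and 1.89. Each of the 3 was without overlap between the numbers. In the list 9 were higher in all 4 conditions and 1 lower, beside 12.6% and 12.3% over all genes, with a median of 0.11. At an unadjusted p under 0.05, 5 were higher and 1 lower, beside 8.42% and 8.09% over all genes. The last 2 counts were also 5 and 1 without the second BR SI-2 library.

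ADA (100), adenosine deaminase of the purine salvage pathway, had 91.6, 104, 104 and 155 CPM in replicate 1. Its replicate 2 levels were 47.7, 61.0, 63.9 and 58.7 CPM, all below the lowest replicate 1 library. The log2 difference was -0.96 (SE 0.13, edgeR adjusted p = 0.0704). Among the 31 purine and adenosine genes tested the median was -0.03. At an unadjusted p under 0.05, 3 members were higher and 2 lower, beside 8.42% and 8.09% over all genes, and 2 were higher and 3 lower without the second BR SI-2 library.

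**Figure D3:**
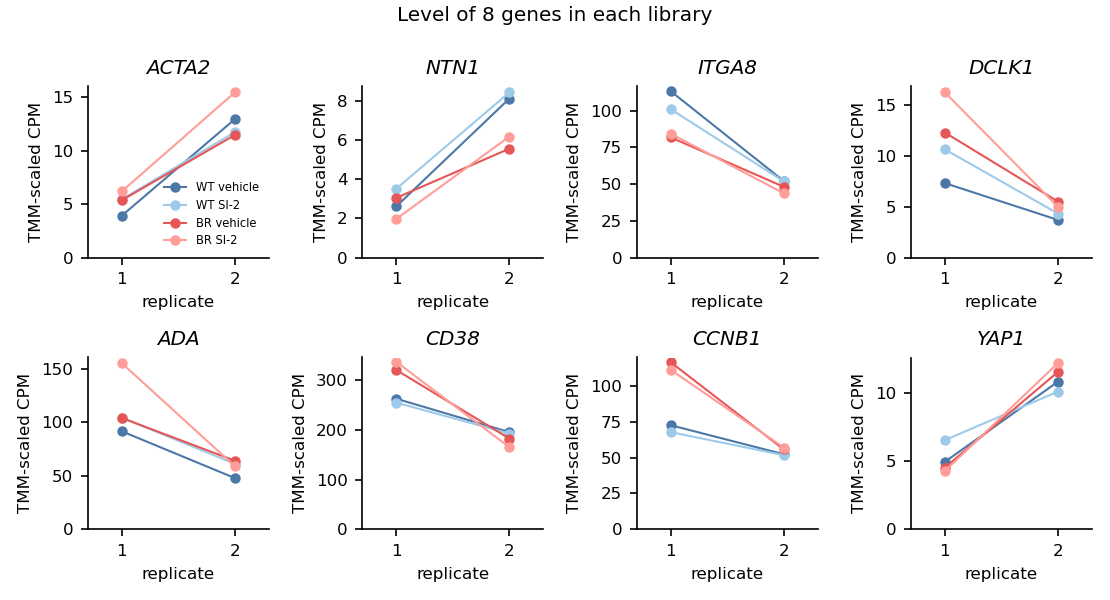
TMM-scaled CPM (y axis, from 0) in the replicate 1 and replicate 2 library (x axis) of each condition for 8 genes, with a line joining the libraries of a condition. ACTA2, NTN1 and YAP1 were higher in replicate 2 in all 4 conditions and ITGA8, DCLK1, ADA, CD38 and CCNB1 lower.

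The smallest unadjusted p of all belonged to ITGA8 (8516), the alpha subunit of an integrin that binds matrix ligands. It had 113, 101, 81.9 and 84.4 CPM in replicate 1 and 52.1, 51.9, 48.2 and 43.8 CPM in replicate 2, a log2 difference of -0.95 (SE 0.10, edgeR adjusted p = 0.0704). Other integrins differed in both directions. ITGAX, an integrin of leukocytes, was higher by 0.74 and ITGA10, a collagen receptor, by 1.08 at a level of 0.910 to 3.28 CPM. Over 17 integrins tested, 5 were higher and 2 lower at an unadjusted p under 0.05, beside 8.42% and 8.09% over all genes, and the median was 0.19. Without the second BR SI-2 library 2 were higher and 2 lower.

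By the rule for named genes, 12 genes in each direction were taken. They had the smallest unadjusted p, a mean count of at least 50 and the same direction in all 4 conditions. None of the 24 passed the adjusted threshold in the 8-library fit of edgeR. DESeq2 with the same terms called members of the 24, ACTA2, ADA and ADAMTS17 among them. On the higher side, besides ACTA2, LMOD1, NTN1 and PLXNA1, were 8 genes of varied function. WNT10A, a Wnt ligand, was higher by 0.92, ADAMTS17, a secreted metalloprotease, by 1.25, and ECE1, which processes endothelin, by 0.92. ZNF532, a zinc finger protein, was higher by 1.34, HERC3, a ubiquitin ligase, by 1.04, SPTBN5, a beta spectrin, by 1.26, and JPH1, which ties the plasma membrane to the endoplasmic reticulum, by 0.82. LOC644634 had the largest difference of the 24, 1.64, at 1.19 to 2.97 CPM in replicate 1 and 4.51 to 8.52 CPM in replicate 2.
On the lower side, besides ITGA8, DCLK1 and ADA, were 9 genes of varied function. PTK2B, a cytoplasmic tyrosine kinase of adhesion and calcium signalling, had a log2 difference of -0.72, at 484 to 563 CPM in replicate 1 and 278 to 365 CPM in replicate 2. CORO1A, an actin regulator of leukocytes, had a log2 difference of -0.91, LRMP, a lymphoid membrane protein, a value of -0.71, and EAF2, a transcription elongation factor, a value of -0.95. PCDHGB2, a protocadherin, had a value of -1.04, SUCLG2, of the citric acid cycle, -0.70, DCPS, a decapping enzyme, -0.67, FAM214A -0.62 and SRSF3, an SR splicing factor, -0.95. For CORO1A the highest replicate 2 library, at 11.5 CPM, lay above the lowest replicate 1 library, at 10.7 CPM, and the other 23 genes showed no such overlap. PCDHGB2 shares exons with its neighbours in the protocadherin gamma cluster, so that the authors' division of shared reads could affect its count.

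**Figure D4:**
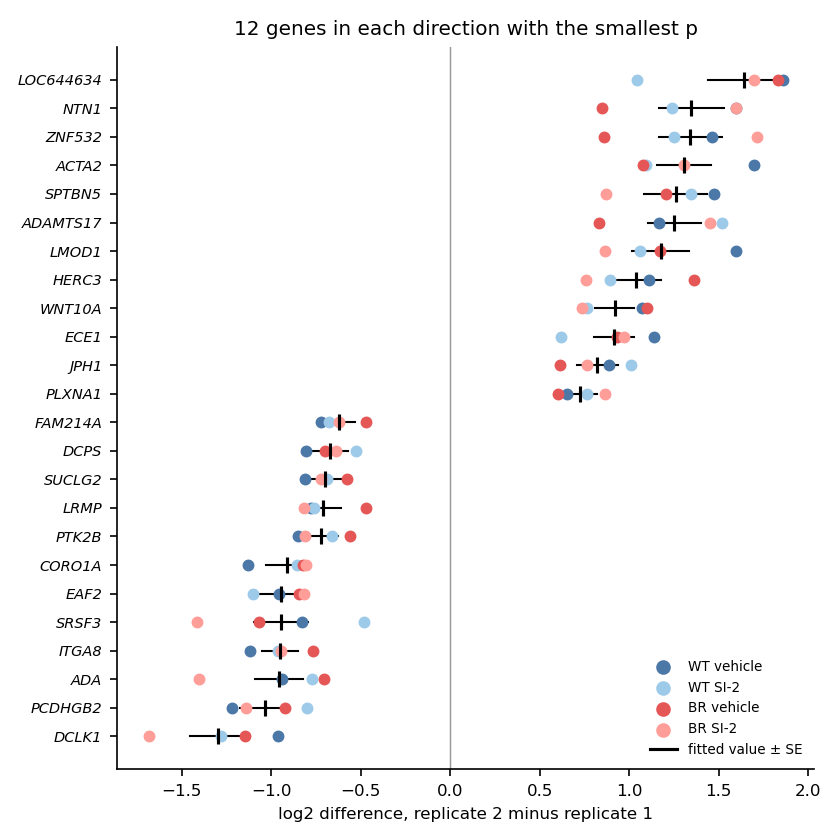
Log2 difference between the replicate 2 and replicate 1 library in each condition (coloured points) and the fitted difference with its standard error (black) for 12 genes in each direction. The rule that picked these genes required all 4 points on the same side of 0. The fitted values run from -1.29 for DCLK1 to 1.64 for LOC644634.

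Most genes of mitosis on the list had values below 0. Of 18 G2/M genes, all tested, 12 were lower in all 4 conditions and 0 higher, beside 12.3% and 12.6% over all genes, and 17 had values below 0. At an unadjusted p under 0.05 (edgeR), 11 were lower and 0 higher, beside 8.09% and 8.42% over all genes. In bulk RNA, fewer cells in mitosis and less RNA of these genes per cell cannot be told apart. Their median was -0.34, with condition medians of -0.40, -0.38, -0.18 and -0.50. In 4 genes the replicate 2 libraries all lay below the replicate 1 libraries, beside 5.96% of all genes. They were CCNB1, the mitotic cyclin B1, BUB1, a kinase of the spindle checkpoint, KIF20A, a kinesin of cytokinesis, and PLK1, the polo-like mitotic kinase.
The starts of these 4 genes are shown because they carry the CCAAT box, bound by NF-Y, and in PLK1 also TTTGAA, the core of the cell cycle genes homology region. Both are known elements of genes expressed in G2 and mitosis. The windows run from 250 bases before to 50 bases after the start and come from RefSeq on GRCh38.p14, while the submitters' processing notes name hg19. Capitals mark CCAAT and TTTGAA on either strand, and the CCAAT and TTTGAA matches can share at most an end base.
CCNB1 (chr5:69166900-69167199, plus strand): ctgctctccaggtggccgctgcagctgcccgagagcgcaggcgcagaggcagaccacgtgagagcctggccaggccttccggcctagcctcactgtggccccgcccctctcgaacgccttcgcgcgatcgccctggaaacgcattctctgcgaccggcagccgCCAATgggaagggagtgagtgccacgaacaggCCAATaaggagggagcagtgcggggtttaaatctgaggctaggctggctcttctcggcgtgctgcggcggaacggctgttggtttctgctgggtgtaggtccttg
BUB1 (chr2:110678014-110678313, minus strand): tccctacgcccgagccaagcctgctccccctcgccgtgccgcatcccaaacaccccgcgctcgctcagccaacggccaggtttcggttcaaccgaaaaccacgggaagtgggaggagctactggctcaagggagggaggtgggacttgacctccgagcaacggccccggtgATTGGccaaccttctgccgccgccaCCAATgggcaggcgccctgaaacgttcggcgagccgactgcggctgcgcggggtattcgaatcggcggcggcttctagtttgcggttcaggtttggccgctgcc
KIF20A (chr5:138178862-138179161, plus strand): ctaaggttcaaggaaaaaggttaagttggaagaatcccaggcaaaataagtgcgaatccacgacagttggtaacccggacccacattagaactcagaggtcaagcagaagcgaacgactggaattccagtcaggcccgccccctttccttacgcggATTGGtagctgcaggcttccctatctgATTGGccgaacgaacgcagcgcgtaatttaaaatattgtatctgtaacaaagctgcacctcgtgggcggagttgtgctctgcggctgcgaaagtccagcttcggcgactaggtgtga
PLK1 (chr16:23678639-23678938, plus strand): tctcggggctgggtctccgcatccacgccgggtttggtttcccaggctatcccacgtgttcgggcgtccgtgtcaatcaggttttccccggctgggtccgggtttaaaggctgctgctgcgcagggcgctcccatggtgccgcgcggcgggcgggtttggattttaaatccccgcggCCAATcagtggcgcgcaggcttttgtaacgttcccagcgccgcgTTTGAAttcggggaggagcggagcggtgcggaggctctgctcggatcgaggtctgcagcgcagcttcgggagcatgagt
RefSeq gave 16 such windows for 14 of the 18 genes. CCAAT was present in 15 of the 16 windows (93.8%) and in 34.6% of all 35116 windows, and TTTGAA in 9 (56.2%) against 15.2%. Such matches describe the sequence and are not measured sites.

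CCNB1 (891) stood at 72.8, 68.0, 117 and 112 CPM in replicate 1 and at 52.5, 51.8, 55.9 and 57.2 CPM in replicate 2. Its log2 difference was -0.73 (SE 0.14, edgeR adjusted p = 0.0854). The replicate 2 libraries were nearly level, whereas in replicate 1 the BR libraries were above the WT libraries. BUB1 had 422, 483, 509 and 660 CPM in replicate 1 and 285, 323, 406 and 365 CPM in replicate 2 (log2 difference -0.58, SE 0.11). AURKA, the aurora kinase of centrosomes, had the smallest p of the list, with a difference of -0.62 and overlapping groups. KIF20A differed by -0.58 and PLK1 by -0.53. In PLK1 the WT SI-2 libraries were nearly level, at 92.7 and 91.0 CPM.
When the libraries of 1 condition were left out, between 8 and 13 of the 18 were lower at an unadjusted p under 0.05, and 12 were lower with the GC trend removed. Of 17 G1/S genes tested, 2 were higher and 0 lower at an unadjusted p under 0.05, beside 8.42% and 8.09% over all genes. Their median was 0.01, or -0.11 without the second BR SI-2 library. UHRF1, a factor of DNA methylation maintenance, had the smallest p, with a difference of 0.37. Without the second BR SI-2 library no G1/S gene had an unadjusted p under 0.05. Among 20 centromere protein genes, a list chosen after values were seen, 7 were lower in all 4 conditions and 0 higher, beside 12.3% and 12.6% over all genes, and CENPA, the centromeric histone variant, differed by -0.80. CENPE and CENPF are in both lists. Of 31 replication-dependent histone genes tested, 9 were lower and 4 higher in all 4 conditions, beside the same shares. Their median was -0.03, or -0.10 without the second BR SI-2 library. HIST2H2AA4 differed by -0.71 with the same counts as its identical copy HIST2H2AA3, so reads of the pair cannot be assigned to either.

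Of 15 plasma cell markers tested, 6 were lower and 2 higher in all 4 conditions, beside 12.3% and 12.6% over all genes. At an unadjusted p under 0.05, 6 were lower and 1 higher, beside 8.09% and 8.42%, with a median of -0.28. CD38 (952), a surface enzyme that is a drug target in myeloma, had 263, 255, 321 and 337 CPM in replicate 1. It had 195, 193, 183 and 165 CPM in replicate 2, a log2 difference of -0.67 (SE 0.13, edgeR adjusted p = 0.0856) and no overlap. IRF4, a transcription factor on which myeloma cells depend, differed by -0.38, with overlapping groups. Its condition differences were -0.59, -0.04, -0.74 and -0.17. POU2AF1, a B cell coactivator, differed by -0.30, and TNFRSF17, the surface receptor BCMA, by -0.44. The condition differences of TNFRSF17 were -0.70, -0.85, -0.02 and -0.18, so they lay mostly in the WT cells. SDC1, the proteoglycan CD138, went the other way with 0.46, from 16.5 to 24.1 CPM in replicate 1 and from 21.2 to 38.3 CPM in replicate 2. With both WT vehicle libraries left out, 1 of the 15 was lower at an unadjusted p under 0.05, while the share over all genes, either direction, went from 16.5% to 9.27%. Without the second BR SI-2 library 6 were lower. The median of the list ran from -0.31 to -0.17 over 26 alternatives.
B cell receptor and leukocyte signalling genes, another list chosen after values were seen, differed in both directions. Of 32 tested, 9 were lower and 5 higher in all 4 conditions, beside 12.3% and 12.6% over all genes, and the median was near 0. VAV1, an exchange factor of antigen receptor signalling, differed by -0.80 and REL, an NF-kB subunit, by -0.58. BTK, the kinase downstream of the B cell receptor, differed by 0.89 at levels of 0.626 to 2.71 CPM, with overlapping groups. Its condition differences were 1.94, 0.84, 0.31 and 0.02, and its fitted difference was 0.47 without WT vehicle replicate 1.

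Genes of the secretory pathway were taken as a list after values were seen, so its direction is not independent of that choice. Of 55 tested genes of endoplasmic reticulum (ER) translocation, glycosylation and export, 18 were lower and 2 higher in all 4 conditions, beside 12.3% and 12.6% over all genes, and the median was -0.26. The condition medians were -0.16, 0.08, -0.53 and -0.45, with the lower values in the BR cells. In the line by replicate test described at the end, 13 of the 55 passed, each with the smaller value in BR, beside 4.95% of all genes, and that test's calls over all genes went from 688 to 19 without WT SI-2 replicate 1. SPCS1, a signal peptidase subunit, had 362, 358, 342 and 313 CPM in replicate 1 and 268, 260, 237 and 235 CPM in replicate 2 (log2 difference -0.46, SE 0.09). MIA3, which loads large cargo at ER exit sites, differed by -0.57, LRRC59, a ribosome-binding ER protein, by -0.57, and TRAM1, of the translocon, by -0.39. At an unadjusted p under 0.05 there were 22 lower and 1 higher, beside 8.09% and 8.42% over all genes. The lower count was 9 without the second BR SI-2 library, 13 without the WT vehicle libraries, 16 without the BR vehicle libraries and 31 without the WT SI-2 libraries, while the share over all genes in either direction went from 16.5% to 10.9%, 9.27%, 16.4% and 17.8%.
The 16 genes of the unfolded protein response had the lowest median of the lists in the 4 conditions together, -0.43, yet 1 of them was lower in all 4 conditions, beside 12.3% over all genes. The condition medians were -0.20, 0.31, -0.97 and -0.82, and the lower values were mostly those of the BR cells. At an unadjusted p under 0.05 there were 6 lower and 0 higher, beside 8.09% and 8.42% over all genes. That count of lower genes was 1 without the second BR SI-2 library (share over all genes, either direction, 10.9%), 15 without the WT SI-2 libraries (17.8%), 3 without the WT vehicle libraries (9.27%) and 3 without the BR vehicle libraries (16.4%). The median ran from -0.69 to -0.23 over 26 alternatives. MANF, a secreted stress-induced factor, had the smallest p, with a difference of -0.95.

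The proteasome is the target of bortezomib. Of 46 subunits tested, 12 were lower and 2 higher in all 4 conditions, beside 12.3% and 12.6% over all genes, and the median was -0.13. The groups did not overlap for 8 lower and 1 higher, beside 5.96% and 5.9%, and 13 of the 46 had values above 0. PSMD2, of the regulatory particle, had 299, 229, 325 and 281 CPM in replicate 1 and 195, 203, 181 and 181 CPM in replicate 2 (log2 difference -0.57, SE 0.12). PSMD1 differed by -0.44, and PSMB4, of the catalytic core, by 0.25. The count of 10 lower and 1 higher at an unadjusted p under 0.05, beside 8.09% and 8.42% over all genes, was 6 and 0 without the second BR SI-2 library, 3 and 1 without the WT vehicle libraries, 6 and 2 without the BR vehicle libraries, and 13 and 0 without the WT SI-2 libraries. In these fits the share over all genes in either direction was 10.9%, 9.27%, 16.4% and 17.8%.
Subunits of oxidative phosphorylation, chosen as a list after values were seen, had 24 lower and 2 higher in all 4 conditions among 79 tested, beside 12.3% and 12.6% over all genes, with a median of -0.14. COX8A, of cytochrome c oxidase, had 210, 197, 237 and 225 CPM in replicate 1 and 121, 133, 163 and 163 CPM in replicate 2, and SDHB, of succinate dehydrogenase, differed by -0.53. At an unadjusted p under 0.05 there were 16 lower and 1 higher, beside 8.09% and 8.42% over all genes, and 13 lower and 0 higher without the second BR SI-2 library, beside 10.9% in either direction. The lower count was 9 without the WT vehicle libraries, beside 9.27%, and 24 with the GC trend removed. Among the 12 SR splicing factors, also chosen after values were seen, 5 were lower and 0 higher in all 4 conditions, beside the same shares. SRSF3 stood at 452, 398, 445 and 436 CPM in replicate 1 and at 255, 285, 212 and 164 CPM in replicate 2, and SRSF7 differed by -0.50. At an unadjusted p under 0.05, 5 were lower and 0 higher, beside 8.09% and 8.42% over all genes. The 5 became 4 without the second BR SI-2 library and 3 without the WT vehicle libraries, beside 10.9% and 9.27% in either direction.

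Genes of developmental signalling were also described by such a list. Of 39 tested genes of the Wnt, Hedgehog and YAP pathways, chosen after values were seen and therefore no independent evidence of a direction, 14 were higher and 3 lower in all 4 conditions, beside 12.6% and 12.3% over all genes. The groups did not overlap for 11 higher and 1 lower, beside 5.9% and 5.96%. WNT10A, the ligand, had 38.9, 56.3, 38.0 and 51.6 CPM in replicate 1 and 82.0, 95.7, 81.6 and 86.1 CPM in replicate 2. Of the receptors, LRP5, a Wnt coreceptor, differed by 0.60, and RYK, a Wnt-binding receptor, by 0.73. Of the transcriptional regulators, GLI3 differed by 0.63 and YAP1, the coactivator restrained by the Hippo kinases, by 1.15. YAP1 (10413) had 4.95, 6.54, 4.52 and 4.28 CPM in replicate 1 and 10.8, 10.1, 11.6 and 12.2 CPM in replicate 2. The median of the list was 0.17, and it ran from 0.09 with the GC trend removed to 0.27 without WT SI-2 replicate 2. At an unadjusted p under 0.05, 12 were higher and 2 lower, beside 8.42% and 8.09% over all genes. These counts were 11 and 2 without the second BR SI-2 library. They were 8 and 2 without the WT vehicle libraries, where the share over all genes in either direction was 9.27%.
Of 29 tested genes of the TGF-beta and BMP pathways, 6 were higher and 2 lower in all 4 conditions, beside 12.6% and 12.3% over all genes, with a median of 0.11. LTBP1, which holds latent TGF-beta in the matrix, had 27.4, 24.6, 28.4 and 23.8 CPM in replicate 1 and 41.9, 41.9, 43.1 and 39.0 CPM in replicate 2, and its log2 difference was 0.67 with a standard error of 0.10. The list had 5 higher and 0 lower at an unadjusted p under 0.05, beside 8.42% and 8.09% over all genes, and 6 and 1 without the second BR SI-2 library. Without the WT vehicle libraries 3 were higher and 0 lower, and with the GC trend removed 4 were higher and 2 lower with a median of 0.04. BMP6, a ligand, differed by 0.57 and TGFBR3, a coreceptor, by 1.11. TGFBR3 stood at only 0.678 to 4.43 CPM, with overlapping groups.

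Of 18 interferon-stimulated genes tested, 3 were higher and 1 lower in all 4 conditions, beside 12.6% and 12.3% over all genes. At an unadjusted p under 0.05, 3 were higher and 0 lower, beside 8.42% and 8.09% over all genes. These last counts were also 3 and 0 without the second BR SI-2 library. The median was 0.18, and it was 0.07 without WT SI-2 replicate 1. IRF7, a transcription factor of the interferon response, had 9.61, 8.85, 8.87 and 9.48 CPM in replicate 1 and 21.0, 21.6, 13.4 and 14.0 CPM in replicate 2 (log2 difference 0.90, SE 0.16). The replicate 1 libraries were level and the WT libraries of replicate 2 stood above the BR libraries. XAF1, a pro-apoptotic protein, differed by 0.89 and USP18, which removes ISG15, by 1.32 at 0.275 to 1.17 CPM.

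**Figure D5:**
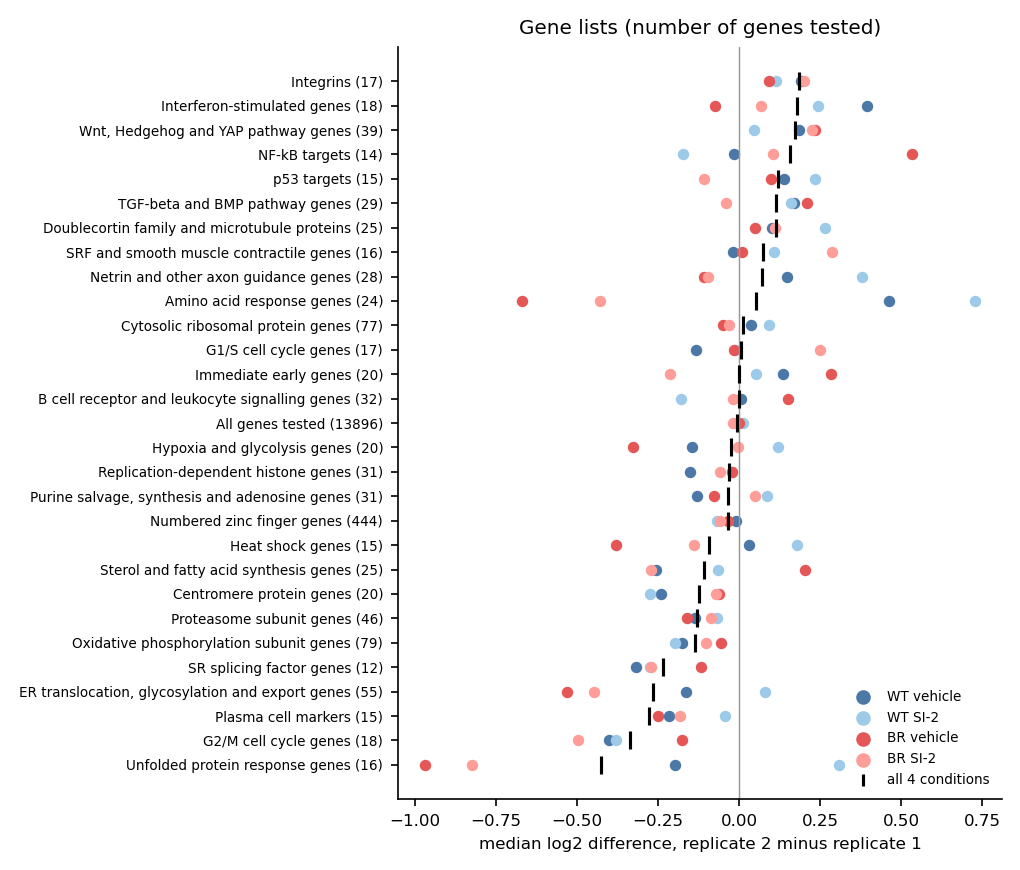
Median log2 difference, replicate 2 minus replicate 1 (x axis), over the tested genes of each list with at least 10 of them, in each condition (coloured points) and in the fit over the 4 conditions (black bars). The G2/M, plasma cell and SR splicing factor medians are below 0 in every condition, with the plasma cell median at -0.04 in WT SI-2 cells. So are the proteasome, oxidative phosphorylation, centromere protein, histone and zinc finger medians. Those of the integrin, microtubule and Wnt lists are above 0 in every condition. The amino acid response medians are above 0 in WT and below 0 in BR cells.

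The remaining lists are given by their counts and medians, and their counts in all 4 conditions stand beside 12.6% higher and 12.3% lower over all genes. Among the 77 cytosolic ribosomal protein genes, 16 were higher and 1 lower in all 4 conditions, by small amounts: the values ran from -0.12 to 0.15 with a median of 0.01, and RPL35 had the smallest p at 0.15. The 444 numbered zinc finger genes had 63 lower and 31 higher in all 4 conditions and a median of -0.04, and ZNF532 led them. For the 14 NF-kB targets the median was 0.16, or 0.06 without the second BR SI-2 library. In all 4 conditions 3 were higher and 0 lower, and CCL3, a chemokine, differed by 1.02. Among 15 p53 targets 1 was higher and 1 lower, with ZMAT3 at 0.36. Heat shock genes had 1 higher and 0 lower of 15, with HSPA4L at 0.36, and hypoxia and glycolysis genes had 3 of 20 each way, with PDK1 at -0.66. Of 25 sterol and fatty acid synthesis genes 3 were higher and 4 lower, with FDFT1, squalene synthase, at -0.42. Immediate early genes had 3 higher and 2 lower of 20, with FOSL2 at 0.67. Of the 24 amino acid response genes, 2 were higher and 2 lower in all 4 conditions, with ATF5 at 0.48.
Few members of the remaining lists were tested. These were 2 fibroblast and stroma markers with SPARC at 1.84, 3 epithelial markers with KRT8 at 0.37, LYZ of the other blood cell markers at -0.15, and 4 long non-coding RNA symbols with LINC00452 at 0.52. SPARC was below 1 CPM in 6 libraries and at 30.2 CPM in the second BR SI-2 library, and its log2 difference was -1.08 without that library. For KRT8 the value without that library was 0.21, and its condition differences were 0.10, -0.07, 0.57 and 0.81. The table held no mitochondrially encoded gene.

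By difference in level, rather than by p, abundant genes led. Among genes whose replicate groups did not overlap, the 3 with the largest gain in mean CPM in replicate 2 were YWHAZ, a 14-3-3 protein, at a log2 difference of 0.36, EIF1, a translation initiation factor, at 0.27, and MTRNR2L1 at 0.44. MTRNR2L1 is near-identical to part of the mitochondrial 16S ribosomal RNA, so its reads cannot be told apart from that RNA. The 3 with the largest loss were ZBTB38, a zinc finger protein that binds methylated DNA, at -0.51, DEPTOR, an inhibitor of mTOR that is abundant in some myelomas, at -0.41, and EDEM3, of ER-associated degradation, at -0.61. DEPTOR had 1667 to 2141 CPM in replicate 1 and 1325 to 1530 CPM in replicate 2. Read-through symbols, which join neighbouring genes and can share their reads, made up 49 of the tested genes and 3 of the 18 with a fitted difference of 4-fold or more.

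The replicate difference was also compared between the lines. Across the 13896 genes, the differences in WT vehicle and WT SI-2 cells had a Pearson correlation of 0.436, and those in BR vehicle and BR SI-2 cells a value of 0.373. Between lines the correlations were 0.196, 0.185, -0.121 and 0.103. These are descriptions across genes that share libraries' depth and composition and are not independent replicates. The line by replicate test takes the vehicle and SI-2 differences of a line as independent, which the labels do not settle. A line by replicate term called 688 genes (4.95%) at an adjusted p under 0.05 in edgeR, 249 with a larger value in BR and 439 with a smaller one. This count depended on single libraries. Leaving out WT SI-2 replicate 1 gave 19 genes and leaving out WT SI-2 replicate 2 gave 232. It was 1108 and 1098 without WT vehicle replicate 1 or 2, 1083 without BR vehicle replicate 2, and 1630 and 1562 without BR SI-2 replicate 1 or 2. The same term for treatment called 0 genes in edgeR, with 408 at an unadjusted p under 0.05, and 2 in DESeq2. Of the 24 amino acid response genes tested, 15 were among the 688 of the 8-library fit, each with the smaller value in BR, and the list's condition medians were 0.46, 0.73, -0.67 and -0.43. Of the 16 unfolded protein response genes 9 were, among them the ER chaperone HSPA5, which had 891, 628, 666 and 651 CPM in replicate 1 and 895, 837, 297 and 277 CPM in replicate 2. None of ACTA2, NTN1, ADA and DCLK1 had an adjusted p under 0.05 for this term, with values from 0.582 to 0.775 in edgeR.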

How the data were processed

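The 8 libraries of LP-1 cells, 2 for each of 4 conditions, had been sequenced on a BGISEQ-500. The authors deposited estimated counts and FPKM (values per length and depth) for 18564 genes. The submitters' processing notes list hg19, BWA, Bowtie2 and RSEM without versions or roles. Deposited tables of the authors' own comparisons, which hold fold changes and p-values, and the tables by transcript were not used, nor were the authors' condition means.

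Estimated counts were rounded and 13896 genes passed filterByExpr of edgeR 4.0.16 (R 4.3.3). The quasi-likelihood test was fitted with 4 conditions and replicate number, which left 3 residual degrees of freedom, after the steps had been tested on simulated data. Groups came from the sample labels. The members and lists (27, and 6 added after values were seen) were chosen with earlier results of these data known. The text names the 4 marker genes, the 12 genes in each direction described in the report, the member of each of the 27 lists with the smallest p, the 3 largest differences in CPM in each direction, and 37 genes chosen after their values were seen. 1 gene result is not reported here. As no gene was past the threshold in the quasi-likelihood fit of edgeR, the 12 places were filled by its smallest unadjusted p. Of the gene identifiers 18267 matched RefSeq, and 25 symbols that a spreadsheet had turned into dates were renamed from it. Alternatives covered scaling, filters, covariates, DESeq2 1.42.0, sva 3.50.0, limma 3.58.1 on log2 FPKM with pseudocounts of 1 and 0.1, and leaving out each library.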

Additional observations from a re-analysis of the deposited data

Results flagged for a closer look

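Gaps between 1 library or condition and the other 3 of its set of 4 were examined, where chance marks about 1 set in 20. The second BR SI-2 library stood away from the other replicate 2 libraries in its genes detected, 16734, and in its 114 genes far above all other libraries. The first BR vehicle library had 1 such gene and the other 3 replicate 1 libraries had 0. Among named genes, the log2 difference of SPARC was 3.75 in BR SI-2 cells, that of CORO1A was -1.13 in WT vehicle cells and that of LRMP was -0.47 in BR vehicle cells, each away from the other 3 conditions.

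Replicate differences that differed between lines were found for 688 genes by the line by replicate term of edgeR, a count that was 19 without WT SI-2 replicate 1 and 1630 without BR SI-2 replicate 1. The difference in BR minus that in WT was -1.41 for HSPA5 and -1.35 for MANF, both of the unfolded protein response, and 0.67 for TNFRSF17. Their causes were not tested.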

How the results depend on the processing

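The count of 0 genes for replicate number became 104 with no filter, 1731 with 1 surrogate variable, 126 with no condition terms, 434 with line and treatment as additive terms, 456 with DESeq2, which changed the tool, the scaling and the filter together, and 1 with both WT SI-2 libraries left out. It ran from 0 to 20 when each library was left out in turn, and leaving out the first WT SI-2 library gave 14 and the second 20. The 1731 genes held all of the 126. The 36 genes for BR against WT became 70 with no filter, 127 with the surrogate variable and 254 with DESeq2, and ran from 1 to 96 when each library was left out. The 0 genes for SI-2 became 1 with no filter, 1 with the surrogate variable and 2 with DESeq2, and ran from 0 to 3. The 688 genes that differed between lines ran from 19 to 1630, the lowest when WT SI-2 replicate 1 was left out and the highest when BR SI-2 replicate 1 was, and the 0 for treatment from 1 to 15, with 2 in DESeq2. The alternatives for these 2 terms that leave out a library were chosen after seeing the data. The cause of these changes was not tested. Where an omission leaves a condition with 1 library, that condition adds nothing to the replicate difference.

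Without the replicate block the count for BR against WT was 18 and that for SI-2 was 0. Replicate numbers did not pair the libraries by the rule used, since the correlation of the differences between numbers ran from -0.121 to 0.436 over pairs of conditions and so was not above 0.1 in each.

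For the 87 named genes, 1974 alternative values kept direction and side of the threshold, 283 moved past the threshold and 3 changed sign. The latter were all of SPARC, at -0.0554 with DESeq2 and from -1.08 to 2.53 as each library was left out. Sizes also moved: with limma on log2 FPKM and a pseudocount of 1, NTN1 was at 0.59 and DCLK1 at -0.63, against 1.35 and -1.29. In that setting ACTA2 was at 1.09 and ADA at -0.89, against 1.31 and -0.96. The low-level genes TGFBR3, ITGA10, MAP2 and SPTBN5 were there at 0.30, 0.36, 0.23 and 0.32, against 1.11, 1.08, 1.23 and 1.26. The median of the SRF list was -0.00216 with the GC trend removed, -0.0693 with both BR SI-2 libraries left out, and from -0.0278 to 0.0810 as each library was left out. The median of the ribosomal protein list was -0.0283 with the length trend removed, -0.0257 with the GC trend removed, -0.0123 with both WT SI-2 libraries left out, and from -0.0157 to 0.0482 as each library was left out. The median of all genes ran from -0.0468, with the GC trend removed, to 0.0535, with upper-quartile scaling. The fit had 3 residual degrees of freedom and a biological coefficient of variation of 0.152.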
